A study of Mus musculus with 10 samples.

Results

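Hnf4a, Foxa1, Foxa2, Foxa3, Onecut1, Onecut2, Cebpa and Cebpb, the genes of the core hepatic transcription factor network, were followed in BMEL cells, bipotential liver progenitors cultured from mouse embryos, which can become hepatocyte-like or bile duct-like. All 8 genes were found on the array, through the 15 probe sets whose platform annotation names exactly 1 of them, of 45101 probe sets in all. Probe sets with a single symbol covered 18193 genes. Their levels were compared between 5 arrays of cells transfected with a locked nucleic acid (LNA) oligonucleotide antisense to miR-30a and 5 arrays of cells transfected with a scrambled control LNA oligonucleotide. Oligofectamine carried the oligonucleotide into the cells of both groups, and each array was made from 100 ng of amplified, biotin-labelled total RNA. The labels give 1 cell line and no age, passage or time after transfection, and are silent on whether replicates came from different cultures. The spread behind each p-value is therefore that between these samples and may be technical. The level of miR-30a itself was not analysed here.

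These factors bind one another's promoters and together set the hepatocyte programme. HNF4A is a nuclear receptor that drives much of hepatocyte gene expression. FOXA proteins are pioneer factors that open liver enhancers in the embryo, ONECUT factors act in the hepatoblast and in bile duct formation, and C/EBP alpha and beta are leucine zipper factors of hepatocyte metabolism and of the acute phase and growth responses. A microRNA lowers transcripts through its seed, bases 2 to 8 of the mature strand, and an antisense oligonucleotide blocks that strand.

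Both mature strands of miR-30a are shown because the labels name miR-30a and no arm, and 2 relatives because they share the seed of its 5p strand. The sequences are from RefSeq (GRCm38.p6), 5′ to 3′, with the seed in capitals.
mmu-miR-30a-5p: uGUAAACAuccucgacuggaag
mmu-miR-30a-3p: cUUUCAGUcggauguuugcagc
mmu-miR-30c-5p: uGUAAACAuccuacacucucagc
mmu-miR-30e-5p: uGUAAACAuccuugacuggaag
The seed GUAAACA is the same in the 3 5p strands, which differ only beyond it, and the 3p strand has the seed UUUCAGU. The miR-30a strands lie at chr1:23272274-23272295 (5p) and chr1:23272315-23272336 (3p) on the plus strand. Which arm the oligonucleotide met was not analysed here, and the sequence of the LNA oligonucleotide used was not given in the sources used here.

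The 250 bases before the annotated start are shown for Cebpa, the member with the largest difference between the groups, and for both annotated starts of Hnf4a, the gene with the most probe sets here. Windows reaching from 250 bases before to 50 bases after the start were available for 7 of the 8 genes, 10 windows in all. They were searched on both strands for ATCAAT (ONECUT), TGTTTNC (FOXA), TTGCG (C/EBP), GTTAAT (HNF1) and CAAAGTCCA (HNF4), and matches stand in capitals.
Cebpa, chr7:35119043-35119292, plus strand: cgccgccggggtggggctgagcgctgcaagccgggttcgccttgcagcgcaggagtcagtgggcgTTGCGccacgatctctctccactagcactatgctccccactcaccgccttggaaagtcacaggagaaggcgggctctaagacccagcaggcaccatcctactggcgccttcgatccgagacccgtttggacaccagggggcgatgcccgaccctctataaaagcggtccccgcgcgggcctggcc
Hnf4a upstream start, chr2:163506607-163506856, plus strand: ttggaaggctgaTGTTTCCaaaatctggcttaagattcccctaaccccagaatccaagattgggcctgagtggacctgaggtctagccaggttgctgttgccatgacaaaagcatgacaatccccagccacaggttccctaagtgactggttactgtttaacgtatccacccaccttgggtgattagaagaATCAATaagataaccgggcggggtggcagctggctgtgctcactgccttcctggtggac
Hnf4a downstream start, chr2:163546905-163547154, plus strand: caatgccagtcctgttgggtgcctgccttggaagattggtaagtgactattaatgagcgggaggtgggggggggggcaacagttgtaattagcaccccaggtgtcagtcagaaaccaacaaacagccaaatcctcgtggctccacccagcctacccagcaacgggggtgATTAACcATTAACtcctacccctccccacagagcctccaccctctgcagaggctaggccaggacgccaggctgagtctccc
The Cebpa window held 1 TTGCG, which begins at position -185 from the start. The upstream Hnf4a window held 1 FOXA and 1 ONECUT match, and the downstream one held 2 HNF1 matches that begin at positions -81 and -74. Of all 32851 such windows in RefSeq, 17.4% held TTGCG, 20.5% TGTTTNC, 7.54% ATCAAT, 7.1% GTTAAT and 0.475% CAAAGTCCA. Of the 10 member windows 3 held TTGCG, 2 held TGTTTNC, 2 held ATCAAT, 2 held GTTAAT and 0 held CAAAGTCCA. No match overlapped another in the member windows. A match describes letters only and was not tested as a binding site.

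None of the 8 genes passed the test between antisense and scrambled arrays. Cebpa and Onecut2 had the largest differences, -0.25 and -0.21 on the log2 scale, and the other 6 lay between -0.11 and 0.03. Of the 12633 genes tested, 193 passed limma's adjusted p of 0.05, which is 1.53%, with 1.16% higher and 0.372% lower in antisense arrays. At an unadjusted p under 0.05 the members gave 1 gene, Cebpa, against 12.9% of all genes tested and 4.5% that were lower by that rule. The values of the groups overlapped for all 8, while they did not overlap for 3.92% of all genes. The median change of the 8 was -0.07 on the log2 scale, with 7 below 0, beside a median of 0.01 over all genes, of which 44.9% lay below 0. Of those 7, Hnf4a (-0.02) and Cebpb (-0.01) lay near 0. Among hepatoblast and liver epithelial markers, 7 of 8 tested genes also lay below 0, with a median of -0.02. The median of the 8 factor genes was -0.040 without antisense replicate 2, -0.044 without antisense replicate 4 and -0.108 without scrambled replicate 2. Values are the authors' log2 expression values, array medians lay between 5.21 and 5.24, and genes whose brightest probe set averaged under 4.56 were left out. The level of a probe set depends on its own probes, so levels are compared between arrays and not between genes. In bulk RNA, fewer cells of a type and less RNA per cell cannot be told apart.

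**Figure D1:**
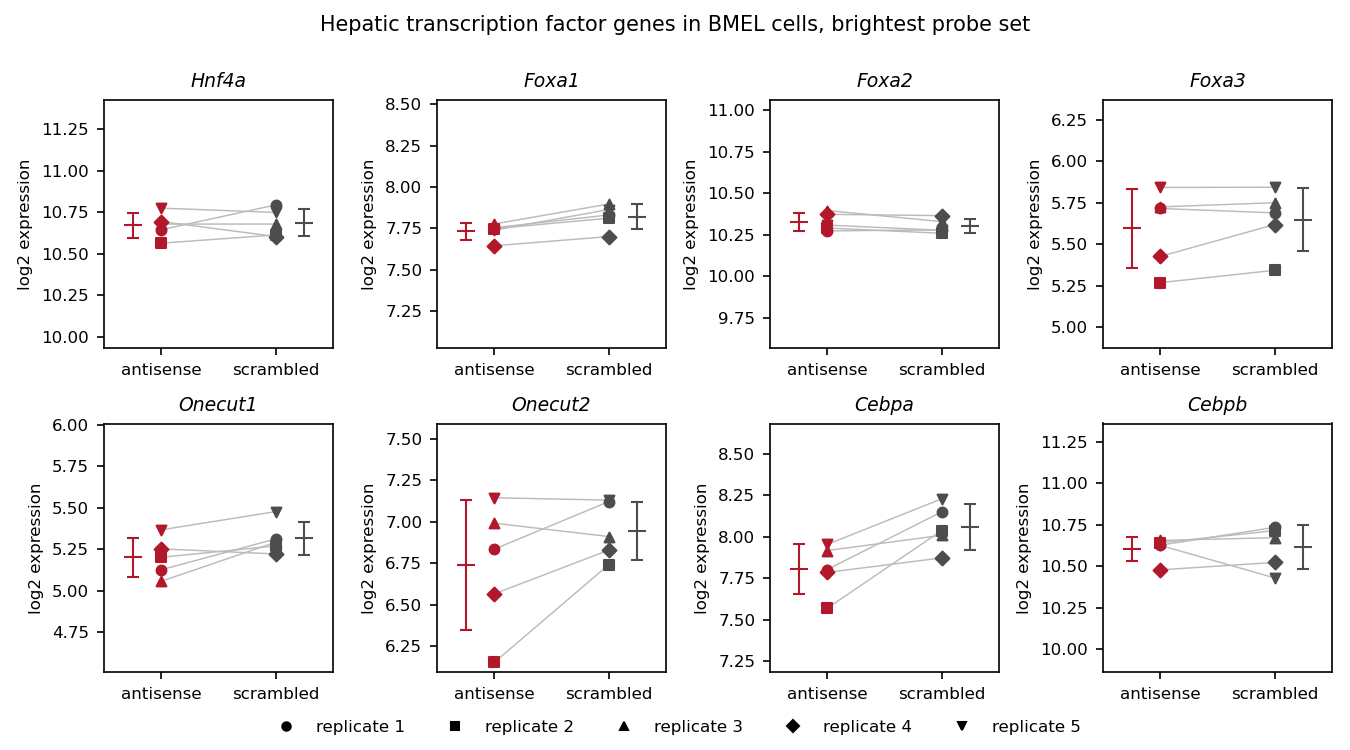
Log2 expression of the brightest probe set of each gene on every array (antisense red and left, scrambled grey and right), with lines joining arrays of the same replicate number and bars giving mean ± SD (n = 5 each); every panel spans the same number of log2 units. The groups overlap in all 8 panels, and Cebpa shows the largest shift, 7.81 ± 0.15 in antisense against 8.06 ± 0.14 in scrambled arrays.

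Cebpa, which encodes C/EBP alpha, a factor that promotes hepatocyte differentiation and restrains growth, had the largest difference. Its log2 level was 7.80, 7.57, 7.92, 7.79 and 7.95 in antisense replicates 1 to 5, against 8.15, 8.04, 8.01, 7.87 and 8.23 in scrambled replicates 1 to 5. Antisense replicates 3 and 5 lay above scrambled replicate 4, and the other 3 antisense arrays lay below every scrambled array. The change was -0.25 (SE 0.079, 95% interval -0.42 to -0.08), a ratio of 0.839, with a limma adjusted p of 0.158, which misses the threshold. It is measured by a single probe set, 1418982_at.

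Cebpb, which encodes C/EBP beta, a factor induced by cytokines and in regenerating liver, was at 10.63, 10.64, 10.65, 10.48 and 10.63 in antisense arrays and at 10.73, 10.71, 10.67, 10.52 and 10.43 in scrambled arrays. Replicate 4 was low in both groups, and scrambled replicate 5 was the lowest of all 10 arrays. The change was -0.01 (SE 0.062, 95% interval -0.14 to 0.12, limma adjusted p = 0.977). A second probe set, 1427844_a_at, averaged 9.29 ± 0.12 in antisense and 9.27 ± 0.18 in scrambled arrays (SD, n = 5 each). It also had its lowest values in antisense replicate 4 (9.08) and in scrambled replicates 5 and 4, so both probe sets followed the same arrays. Its change of 0.03 had an adjusted p of 0.967 over all 45037 probe sets, of which 0.266% passed.

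Hnf4a, the nuclear receptor gene, was at 10.65, 10.56, 10.68, 10.69 and 10.78 in antisense arrays and at 10.79, 10.61, 10.68, 10.60 and 10.75 in scrambled arrays by its brightest probe set, 1427001_s_at. The groups covered nearly the same range. The change was -0.02 (SE 0.051, limma adjusted p = 0.945), and its 95% interval of -0.13 to 0.09 corresponds to between 8.39% lower and 6.69% higher. The other 3 probe sets also missed the threshold over all probe sets, with adjusted p from 0.786 to 0.973. Probe set 1421983_s_at averaged 8.43 ± 0.16 in antisense and 8.49 ± 0.17 in scrambled arrays (SD, n = 5 each), and both replicates numbered 4 were its lowest (8.17 in antisense, 8.21 in scrambled). Probe set 1427000_at averaged 8.41 ± 0.10 in antisense and 8.32 ± 0.15 in scrambled arrays (SD, n = 5 each). Here replicate 4 was the highest antisense array (8.58) and the lowest scrambled one (8.08). Probe set 1450447_at averaged 5.88 ± 0.13 in antisense and 5.90 ± 0.05 in scrambled arrays (SD, n = 5 each), with antisense replicate 3 (5.64) apart from the rest. The 4 probe sets thus placed replicate 4 differently, and their changes ran from -0.06 to 0.09.

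Foxa1, a pioneer factor gene of liver specification, was at 7.75, 7.75, 7.78, 7.65 and 7.74 in antisense arrays, against 7.83, 7.81, 7.90, 7.70 and 7.86 in scrambled arrays. Scrambled replicate 4 was the only scrambled array within the antisense range. The change was -0.09 (SE 0.045, 95% interval -0.18 to 0.01, limma adjusted p = 0.441). Foxa2, which acts together with Foxa1 in opening liver genes, was at 10.27, 10.29, 10.40, 10.37 and 10.31 in antisense arrays and at 10.28, 10.26, 10.33, 10.37 and 10.28 in scrambled arrays. It was the only member above 0, by 0.03 (SE 0.040, 95% interval -0.06 to 0.11, adjusted p = 0.856), and had the narrowest interval of the 8. With 1 array left out its change ran from 0.0094 to 0.042. Foxa3, a FOXA gene that persists in adult hepatocytes, was at 5.72, 5.27, 5.73, 5.43 and 5.84 in antisense arrays and at 5.69, 5.34, 5.75, 5.62 and 5.84 in scrambled arrays. Replicate 2 was the lowest and replicate 5 the highest in both groups. The change was -0.05 (SE 0.11, 95% interval -0.30 to 0.19, adjusted p = 0.91), and without antisense replicate 2 it was 0.03.

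Onecut1 encodes HNF6, an early hepatoblast factor that also acts in bile duct development. Its brightest probe set, 1450252_at, was at 5.13, 5.2, 5.06, 5.25 and 5.37 in antisense arrays and at 5.31, 5.27, 5.29, 5.22 and 5.48 in scrambled arrays. Antisense replicates 1, 2 and 3 lay below every scrambled array. The probe set is dim, with a mean of 5.26 over the 10 arrays beside array medians of 5.21 to 5.24. The change was -0.11 (SE 0.063, 95% interval -0.25 to 0.02, limma adjusted p = 0.49), and it was -0.074 without scrambled replicate 5. A second probe set, 1421447_at, averaged 3.23 in antisense and 3.30 in scrambled arrays, under the filter level, and was the only 1 of the 15 left out by it.

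Onecut2, a relative with an overlapping role in early liver, was measured by 3 probe sets with similar changes. The brightest, 1440005_at, was at 6.84, 6.15, 6.99, 6.57 and 7.15 in antisense arrays and at 7.12, 6.74, 6.91, 6.83 and 7.13 in scrambled arrays. Antisense replicates 2 and 4 lay below all scrambled arrays, and antisense replicate 5 lay above them all. The change was -0.21 (SE 0.16, 95% interval -0.54 to 0.13, limma adjusted p = 0.643), the widest interval of the 8. Probe sets 1444980_at and 1460044_at had changes of -0.19 and -0.21, and in both antisense replicate 2 was the lowest of all 10 arrays. Without antisense replicate 2 the change was -0.063 for 1440005_at, -0.076 for 1444980_at and -0.112 for 1460044_at. Without scrambled replicate 1 it was -0.118 for 1444980_at and -0.097 for 1460044_at, and without antisense replicate 4 it was -0.137 for 1460044_at.

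**Figure D2:**
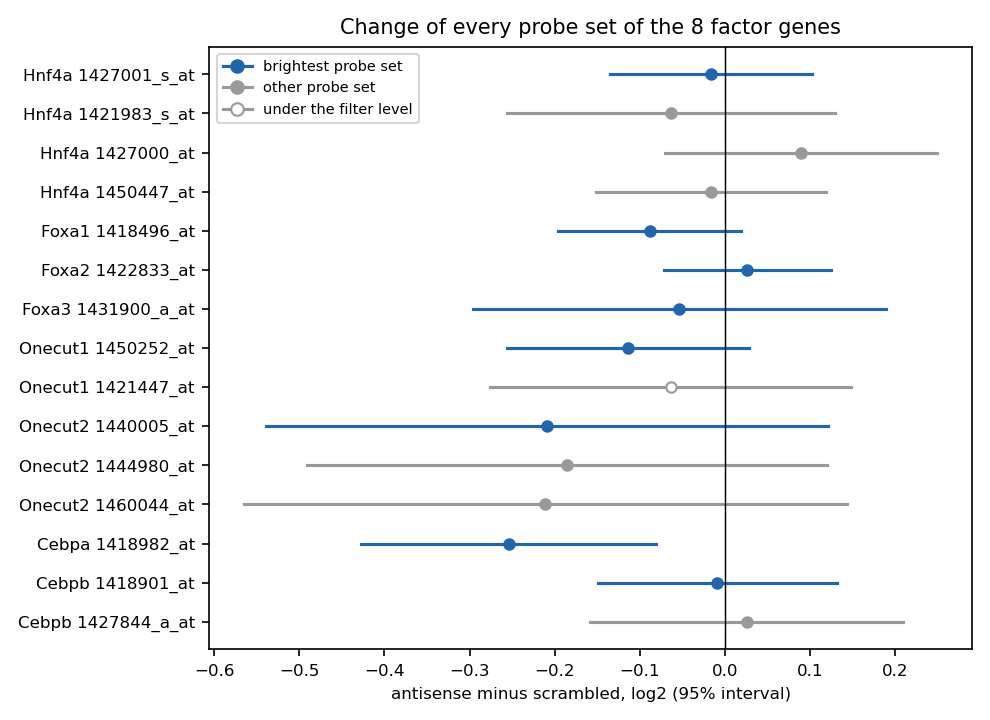
Antisense minus scrambled (log2 units) for every probe set of the 8 genes, each with the 95% interval from the fit over 45037 probe sets; blue marks the brightest probe set of a gene, and an open point lies under the filter level. The interval of Cebpa, -0.43 to -0.08, is the only 1 that leaves out 0 before adjustment, and the 3 Onecut2 probe sets lie side by side.

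Deviations from the group means correlated at 0.112 to 0.377 between arrays of the same replicate number. Between different numbers they correlated at -0.312 to 0.231, so the ranges overlap, and only numbers 2 (0.377) and 5 (0.335) lay above 0.231. No label states a pairing. With that limit, differences within a number were set beside the group means. Cebpa and Foxa1 were below their scrambled partner in each of the 5 pairs, as were 6.67% of all genes tested. For Cebpa the differences were -0.35, -0.47, -0.09, -0.09 and -0.27 for numbers 1 to 5, and for Foxa1 they were -0.08, -0.06, -0.12, -0.06 and -0.12. Foxa3 and Onecut1 were lower in 4 of 5 pairs, Cebpb in 4, Onecut2 in 3, Hnf4a in 2 and Foxa2 in 1. With the replicate number as a block none of the 8 passed either, while 385 genes did, 3.05% of those tested, with 1.04% lower. Among the 15 probe sets none passed in the blocked fit over all probe sets, where 0.429% did. At an unadjusted p under 0.05 the blocked fit gave 4 members, all lower (Cebpa, Foxa1, Onecut1 and Onecut2), against 6.45% of all genes tested that were lower by that rule. The SE of Foxa3 was 0.041 with the block and 0.11 without it, and that of Onecut2 was 0.089 with the block and 0.16 without it, so same-numbered arrays shared much of their level for both genes. For Cebpa the blocked adjusted p was 0.067, the lowest of the 8.

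**Figure D3:**
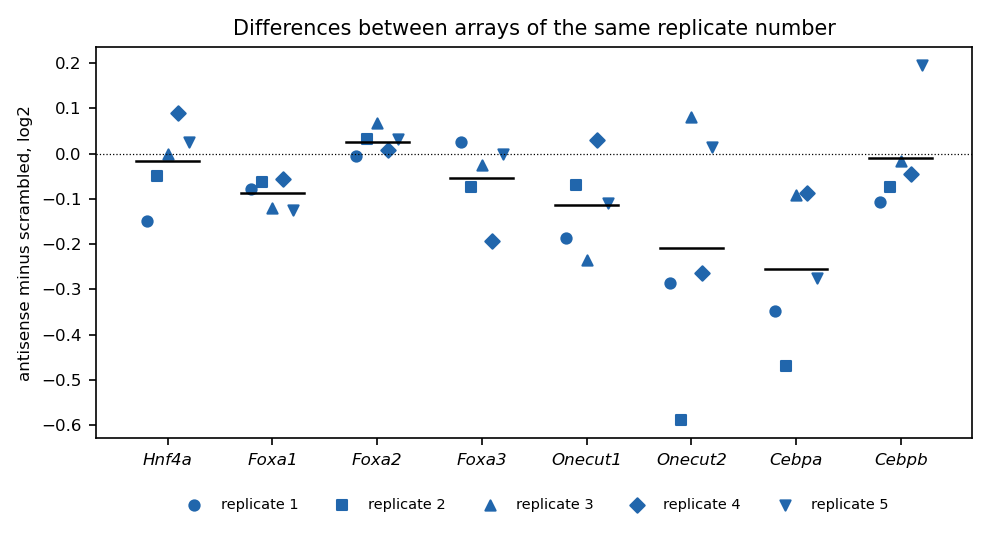
Difference between the antisense and the scrambled array of each replicate number, on the log2 scale, for the brightest probe set of each gene; black lines give the mean difference. All 5 points lie below 0 for Cebpa and Foxa1, and the points of Onecut2 spread from -0.59 to 0.08.

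The genes whose levels followed each member most closely over the 10 arrays are named as a description, by Pearson's r of the log2 values and with no test, since they were picked as the highest among all genes tested and both values come from the same arrays. Cebpa was followed by Fut2, a fucosyltransferase gene (r = 0.969), Alpi, an alkaline phosphatase gene of the gut (r = 0.968), and Dbp, a leucine zipper factor gene with a daily rhythm in liver (r = 0.961). These had changes of -0.66, -0.50 and -0.45 that missed the threshold without the block and passed it with the block (limma adjusted p = 0.0142, 0.0106 and 0.0234). Likeness was taken over both groups together, so genes picked for following Cebpa share its shift, and these values are no separate result. Slc16a10, which followed Foxa1, was the only other of the 24 genes to pass with the block, with a change of -0.20 (adjusted p = 0.0409). With the block 3.05% of all genes tested passed. Onecut2 was followed by Spint2, a protease inhibitor gene (r = 0.968), Eps8l3 (r = 0.966) and Ypel2 (r = 0.958). Hnf4a was followed by Phgr1 (r = 0.964), the hexokinase gene Hk1 (r = 0.950) and Grina (r = 0.945). For Cebpb they were Ppil2 (r = 0.966), Ints11, which encodes the nuclease of the Integrator complex (r = 0.939), and the SUMO protease gene Senp2 (r = 0.929). Onecut1 had Osbpl1a (r = 0.942), Plekhg6 (r = 0.929) and Tssk5 (r = 0.916), and Foxa3 had Dtx3l (r = 0.939), Krcc1 (r = 0.920) and Mpp5 (r = 0.912). Foxa2 had Gm15417 (r = 0.925), the calcium channel gene Cacna1g (r = 0.904) and Them4 (r = 0.882), and Foxa1 had the amino acid transporter gene Slc16a10 (r = 0.883), the sialyltransferase gene St3gal4 (r = 0.857) and Cmpk1 (r = 0.851). With the mean of a gene's probe sets in place of the brightest, r fell for all 3 genes of Hnf4a (to 0.707, 0.715 and 0.595) and to 0.656 for Ppil2, 0.438 for Dtx3l, 0.508 for Mpp5 and 0.063 for Cmpk1, while the 3 genes of Cebpa stayed between 0.919 and 0.968.

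**Figure D4:**
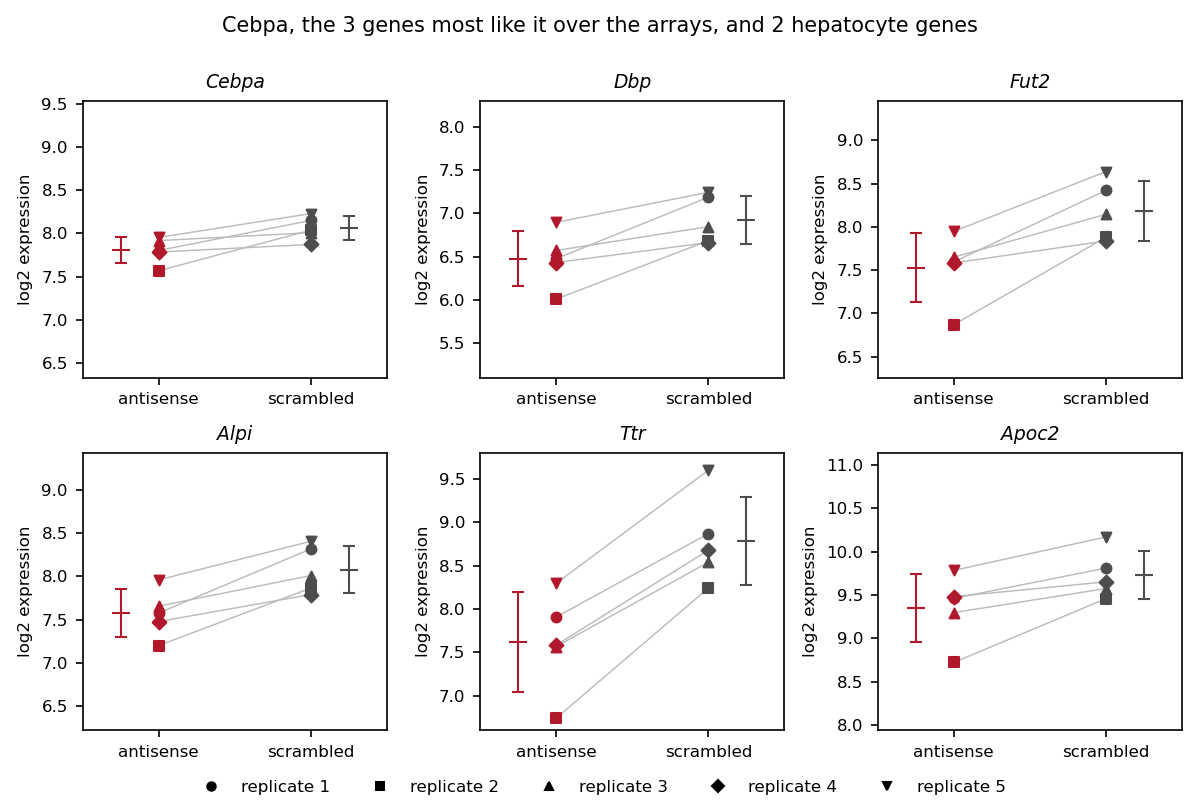
Log2 expression of Cebpa, of Dbp, Fut2 and Alpi, the 3 genes most like it over the arrays, and of the hepatocyte genes Ttr and Apoc2 (antisense red and left, scrambled grey and right), with lines joining arrays of the same replicate number and bars giving mean ± SD (n = 5 each); every panel spans the same number of log2 units. In every pair all 6 genes are lower in the antisense array, and replicate 2 is the lowest antisense array for each. Lower in all 5 pairs were 6.67% of all genes tested. Dbp, Fut2 and Alpi were picked for following Cebpa, Ttr for its small p and Apoc2 after its values were seen. Their shared direction is therefore no separate result. Of hepatocyte genes not drawn, Apob and Slc2a2 lay in the other direction and Apoa1 in the same.

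Hepatocyte genes that these factors are known to bind were mostly too dim to test. Of 37 listed genes 14 were tested and 21 lay under the filter level, and none of the 14 passed (limma), with a median change of -0.0035 and 7 on each side of 0. Among the 14, Tat (mean 4.68 over the 10 arrays), Alb (4.71), Hamp (4.89), Apoa4 (5.04), Hp (5.05), Apoa2 (5.16) and Mttp (5.18) lay under the lowest array median of 5.21. The median change and the even split include these dim genes. Ttr, the thyroid hormone carrier and a classic target of HNF4A, FOXA and C/EBP factors, was at 7.91, 6.74, 7.57, 7.58 and 8.30 in antisense arrays, against 8.87, 8.24, 8.54, 8.68 and 9.60 in scrambled arrays. Only antisense replicate 5 reached into the scrambled range. Its change of -1.17 (SE 0.27) had an adjusted p of 0.0574, and it fell with the block (adjusted p = 0.000812). Ttr also passed without antisense replicate 5 (limma adjusted p = 0.0368), without scrambled replicate 2 (0.0467), with an intensity trend (0.0193) and with a 60% filter on dim genes (0.0422). Apoc2, an apolipoprotein gene named after its values were seen, was at 9.46, 8.72, 9.30, 9.48 and 9.78 in antisense arrays and at 9.81, 9.46, 9.57, 9.65 and 10.17 in scrambled arrays. It had a change of -0.38 (SE 0.17, adjusted p = 0.371) and fell with the block (adjusted p = 0.0346), and without antisense replicate 2 the change was -0.227. Slc2a2, a glucose transporter gene also named after its values were seen, had a smaller unblocked p and lay in the other direction, higher in 4 of 5 pairs, at 0.18 (SE 0.075, limma adjusted p = 0.329, with the block 0.166). Apoa1 was at -0.21 (adjusted p = 0.213) and Apob, in the other direction, at 0.15 (adjusted p = 0.227).

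Of 28 other liver-enriched transcription factors 21 were tested and none passed (limma), with a median change of -0.03 and 14 below 0. Sox9, a duct and progenitor factor with the smallest p of this list, averaged 7.36 ± 0.06 in antisense and 7.19 ± 0.05 in scrambled arrays (SD, n = 5 each). Its groups did not overlap, nor did those of 3.92% of all genes tested. Its change of 0.17 had an adjusted p of 0.0662, and with a 60% filter on dim genes it was 0.0437. Dbp averaged 6.48 ± 0.32 in antisense and 6.93 ± 0.27 in scrambled arrays (SD, n = 5 each). Nr2f1, an orphan nuclear receptor gene, had a change of -0.11 (adjusted p = 0.466). With the block Dbp alone of the 21 passed.

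Of 17 cofactors, partners and inhibitors of these factors 13 were tested and none passed (limma), with a median change of 0.03 and 6 below 0. Ddit3, which encodes CHOP, a C/EBP relative that dimerises with C/EBP proteins and blocks their binding, had the smallest p, with 9.83 ± 0.07 in antisense and 9.99 ± 0.07 in scrambled arrays (SD, n = 5 each) and a change of -0.16 (adjusted p = 0.12). The coactivator gene Ep300 was at -0.11 (adjusted p = 0.195), and the corepressor deacetylase gene Hdac3 was at 0.08 (adjusted p = 0.396). The groups did not overlap for Ddit3 and Ep300, the genes with the smallest p of this list, nor for 3.92% of all genes tested.

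**Figure D5:**
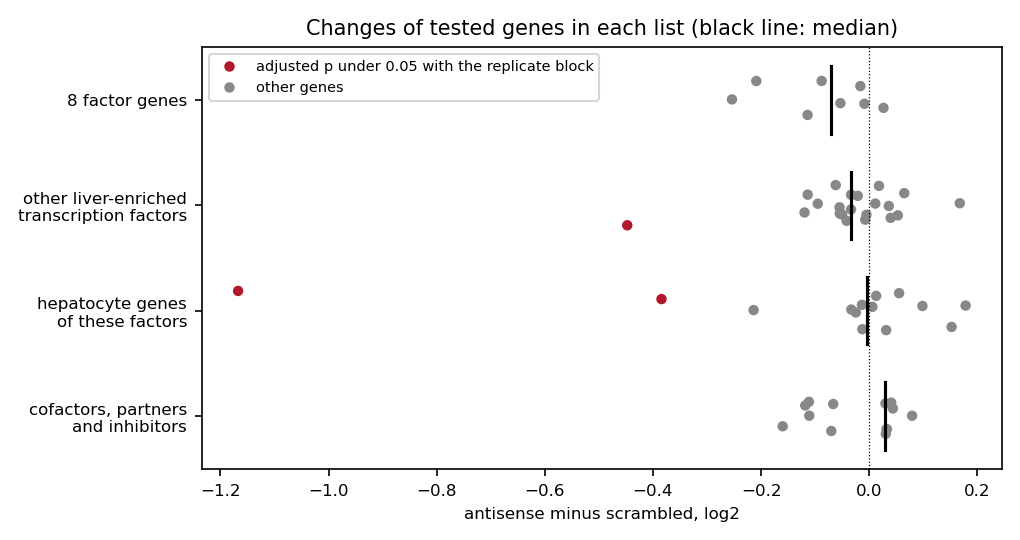
Antisense minus scrambled (log2 units) for every tested gene of the 8 factor genes and 3 related lists; each point is a gene, black lines are medians and red points passed an adjusted p of 0.05 with the replicate block. The red points are Dbp, Ttr and Apoc2, and no member is red.

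Marker genes of the labelled cell type and of others were set against the filter level of 4.56, and not against each other. Of 9 hepatoblast and liver epithelial markers 8 lay above it, among them the keratin genes Krt8 (mean 13.77 over the 10 arrays) and Krt18 (13.71), Cdh1 (11.21), Afp (6.38), Epcam (6.33) and Alb (4.71), and Dlk1 lay under it. Of 8 biliary markers with a probe set 7 lay above it, among them Krt19 (13.48), Krt7 (11.62) and Aqp1 (4.62), and Cftr lay under it. Among 8 tested hepatoblast and liver epithelial markers none passed, with Afp at 0.10, Igf2 at -0.09 and Cdh1 at -0.04, and among 7 tested biliary markers none passed, with Sox9 at 0.17, Bicc1 at -0.17 and Itgb4 at 0.16. Bicc1 fell with the block (limma adjusted p = 0.043) and with an intensity trend (0.0455). Of 6 endothelial markers 3 lay above the filter level, Flt1 (mean 8.22 over the 10 arrays), Kdr (6.09) and Erg (5.37). None of them passed, with Flt1 at -0.10, Erg at 0.04 and Kdr at -0.02, and Pecam1, Cdh5 and Tek lay under that level. Of 7 mesenchymal and stellate markers 5 lay above the filter level, among them Acta2 (mean 5.41), Dcn (5.16) and Col1a2 (4.77). None of these 5 passed, with Col1a2 at -0.08, Acta2 at 0.06 and Dcn at -0.02. Among the blood and macrophage markers Csf1r (mean 6.44), Cd68 (5.66) and Cx3cr1 (4.60) lay above it, and Ptprc, Adgre1 and Hba-a1 lay under it. The changes of Cx3cr1 (0.07) and Csf1r (0.05) did not pass. Cd68, a lysosomal gene, rose by 0.39 (limma adjusted p = 0.0176), a call lost without antisense replicate 3 (0.0523) or 4 (0.0551). Some markers of each listed cell type thus lay above the filter level, so that level alone did not set the labelled cell type apart. The part of these markers in the values of the 8 factor genes was not tested.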

How the data were processed

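Each deposited value is a log2 expression level that the authors had computed for 1 probe set on 1 array. That the scale is log2 was read from the values (highest 14.18). How the authors summarised, background-corrected and normalized the arrays is not given here by any label or header, and the labels' protocols cover only transfection, RNA isolation and labelling. Symbols came from the platform annotation, updated by gene identifier to RefSeq (GRCm38.p6): 34754 of 34945 probe sets with 1 symbol matched, and 932 with several and 9160 with none were left unnamed. A gene was represented by its brightest probe set (mean over 10 arrays), and the 12633 of 18193 genes at or above 4.56, a level that 40% of probe sets fall under, were tested.

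Antisense was compared with scrambled in limma 3.58.1 (R 4.3.3) by a two-sided moderated test, adjusted by Benjamini and Hochberg over all genes tested, at a threshold of 0.05. A fit over all 45037 probe sets that are not array controls used no filter. Only the gene-level fit without the block was tested on simulated data, with noise drawn independently for each array. The blocked fit, the intensity trend and the fit over all probe sets were not tested in that way. Precision is limited by the number of arrays.

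The 8 members, the gene lists and the naming rules were chosen with earlier results of these data known. Named were all members, the 3 genes of each list with the smallest p and any past the threshold, and the 3 genes with the highest Pearson correlation to each member. Deviations from the group means correlated at 0.112 to 0.377 within the 5 replicate numbers. Between different numbers they correlated at -0.312 to 0.231, with a mean of -0.059. The ranges overlap, and the numbers were treated as pairs. No label states that pairing, which rests on the values alone. Alternatives were a replicate block, quantile normalization, median centring, no filter, a 60% filter, the mean of a gene's probe sets, an intensity trend, and leaving out each array. The block in the fit over every probe set was added after the data were seen. Figures were drawn with matplotlib 3.10.9.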

Additional observations from a re-analysis of the deposited data

Results flagged for a closer look

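Among 78 groups of 5 arrays checked for a single array far from the rest (Dixon's test at 95%), 5 stood out, where chance gives about 1 in 20. Antisense replicate 4 was low for Foxa1 (7.65, next 7.74) and for both Cebpb probe sets, 1418901_at (10.48, next 10.63) and 1427844_a_at (9.08, next 9.30), which are annotated to the same gene. Antisense replicate 3 was low for Hnf4a probe set 1450447_at (5.64, next 5.93). Antisense replicate 2 was low for the endothelial marker Flt1 (7.95, next 8.19).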

How the results depend on the processing

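None of the 8 factor genes passed the threshold under any alternative that tested it, and Cebpa, Foxa1, Foxa2, Onecut1 and Onecut2 kept their direction, though not their size, in all of them. Under the 60% filter Foxa3 and Onecut1 were too dim to be tested, and Onecut1 was too dim with the mean of its probe sets. With 1 array left out, Onecut1 ranged from -0.156 to -0.0735, Foxa2 from 0.0094 to 0.0422, Onecut2 from -0.311 to -0.0625 and the median of the 8 from -0.108 to -0.0402. Cebpa ranged from -0.301 to -0.195 with 1 array left out, with limma adjusted p from 0.105 to 0.300. Its lowest adjusted p under any alternative was 0.067, with the replicate block and all arrays. Cebpb turned to 0.0082 with the mean of its probe sets. Leaving out 1 array at a time turned 3 genes: Cebpb ranged from -0.0552 to 0.0228, Foxa3 from -0.130 to 0.0284 and Hnf4a from -0.0424 to 0.0104, with the same ranges for their brightest probe sets. It also turned Cebpb probe set 1427844_a_at (-0.0405 to 0.0784), Hnf4a probe sets 1421983_s_at (-0.131 to 0.0017) and 1450447_at (-0.0352 to 0.0436), and the markers Dcn (-0.0738 to 0.0294), Erg (-0.0167 to 0.139) and Kdr (-0.0574 to 0.0191). None of these had passed, and the cause was not tested.

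Over all genes, 193 passed (146 higher, 47 lower). With the replicate block, the pairing of same-numbered arrays, 385 passed (253 higher, 132 lower), and it changed no call among the 8 factor genes, while Ttr, Apoc2, Dbp and Bicc1 passed with it. With an intensity trend 314 passed (230 higher, 84 lower). Leaving out 1 array gave 92 to 202 (78 to 160 higher, 14 to 42 lower), the fewest without antisense replicate 4.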
